A study of Mus musculus with 12 samples.

Results

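The chromatin contacts of 43 genes of the Wnt pathway were examined: 19 Wnt ligands, 10 Frizzled receptors, the LRP co-receptors Lrp5 and Lrp6, 5 genes of beta-catenin and its destruction complex, 4 TCF/LEF factors and 3 secreted inhibitors. The genes were chosen by name and role from 21728 protein-coding genes on chromosomes 1 to 19 and X of the mm10 build. For each gene, the read-pair ends in every interaction anchor that overlapped the transcription start site (TSS) extended by 10 kb on each side were summed. This sum is called the interaction anchor strength here. Read pairs that joined such an anchor to one centred between 20 kb and 1 Mb from the TSS were counted as distal pairs.

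The contacts came from E14Tg2A mouse embryonic stem cells (ESC), grown with 100 U/mL of leukemia inhibitory factor (LIF), and from neuronal committed cells (NCC), made from the same line with 1 µM retinoic acid in medium without LIF for 48 h. Each cell type was assayed by Hi-C, which ligates and sequences DNA ends that lie close together in fixed nuclei, and by HiChIP, the same reaction followed by immunoprecipitation with an antibody against FGFR1, a growth factor receptor that also enters the nucleus (nFGFR1), or against CTCF, a DNA-binding protein found at the borders of chromatin loops. The 2 biological replicates of each group were merged into 1 table before deposit, so the 6 tables compared here carry no replicate error and no p-value was computed. A log2 change of NCC over ESC is therefore given with a 95% counting interval, which covers counting error only and compares pooled libraries of 1 cell line, not the conditions in general. The tables held 20790622 read pairs for ESC Hi-C and 21279750 for NCC Hi-C, 2679131 and 3232003 for FGFR1 HiChIP, and 1226039 and 1065662 for CTCF HiChIP. The share of read pairs with both ends in 1 anchor was 28.3% for ESC CTCF HiChIP against 20.4% for NCC CTCF HiChIP, and 17.6% to 20.9% in the other tables. The tables hold contacts and neither RNA nor protein, so the labelled cell types could not be set against markers, and a contact present in fewer cells cannot be told apart from one made less often in each cell.

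Wnt proteins are secreted signals that bind a Frizzled receptor together with an LRP co-receptor at the surface of the receiving cell. Without a Wnt, a destruction complex built on Axin and APC, with the kinase GSK3, marks beta-catenin for degradation; with a Wnt, beta-catenin accumulates, enters the nucleus and acts with TCF/LEF factors on target genes. The pathway maintains mouse ESC in culture and patterns the early embryo and the nervous system, and secreted inhibitors of the Dickkopf and SFRP families limit it outside the cell.

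Some sequences of the windows are printed first, because the values below refer to them. The 250 bases before the RefSeq start (GRCm38.p6, the build also called mm10) of Wnt3, chr11:103773925-103774174 on the plus strand, and of Lef1, chr3:131110073-131110322 on the plus strand, belong to genes whose FGFR1 contacts were lower in NCC. Capitals mark CpG dinucleotides, 22 at Wnt3 and 14 at Lef1. Both stretches lay in Hi-C anchors of both cell types and in no FGFR1 anchor of either, and only the Lef1 stretch lay in a CTCF anchor, in NCC with 10 ends.
Wnt3: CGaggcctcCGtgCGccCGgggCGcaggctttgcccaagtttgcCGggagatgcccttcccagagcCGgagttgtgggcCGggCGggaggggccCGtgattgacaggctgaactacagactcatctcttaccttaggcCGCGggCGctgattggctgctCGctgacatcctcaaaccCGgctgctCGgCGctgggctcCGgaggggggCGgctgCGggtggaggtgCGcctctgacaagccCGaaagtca
Lef1: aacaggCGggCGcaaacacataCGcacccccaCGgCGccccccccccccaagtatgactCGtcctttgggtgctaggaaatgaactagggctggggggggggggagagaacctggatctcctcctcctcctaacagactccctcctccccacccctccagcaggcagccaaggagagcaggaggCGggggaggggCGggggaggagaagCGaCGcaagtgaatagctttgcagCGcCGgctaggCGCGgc

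A search of the windows on both strands for the CTCF consensus found a match in 5 of the 43 members (11.6%), against 14.7% of all protein-coding genes. These were Wnt8a, Wnt9b, Wnt10a, Fzd3 and Fzd8. The matches of Wnt9b, Wnt10a and Fzd3 are printed, to be set against the anchors of the tables below; they were read from the mm10 genome, on the strand that carries the match, with the 12 matching bases in capitals. The Wnt9b match lay at chr11:103758928-103758957 (minus strand). Those of Wnt10a lay at chr1:74784654-74784683 (plus), chr1:74788010-74788039 (plus) and 8.7 kb downstream of its TSS at chr1:74800225-74800254 (minus), and the Fzd3 match at chr14:65266196-65266225 (minus).
Wnt9b: ccccgctgaCCAGCAGGGGGCgctcctgca
Wnt10a, far upstream: tattagattCCAGCAGGGGGCgctgtctga
Wnt10a, near upstream: tcaaatagaCCACCAGAGGGCgtccaggat
Wnt10a, downstream: ggatatagtCCAGCAGATGGCttaccagca
Fzd3: gccagggaaCCAGCAGATGGCacgccctta

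The TCF/LEF core CTTTGAT, through which these factors bind DNA, was searched on both strands of the RefSeq promoter windows, from 250 bases before to 50 after each start. It was found in 2 of the 39 windows of the 30 members listed there (5.13%), against 3.73% of 32851 windows of all genes. The hits belong to Wnt5b and Wnt11. That of Wnt5b lies before a RefSeq start outside the window counted here for this gene and is not printed. That of Wnt11, at chr7:98835051-98835077 (plus strand), 51 bases before the start, lies inside the window and is shown with 10 flanking bases and the core, which is on the opposite strand, in capitals.
Wnt11: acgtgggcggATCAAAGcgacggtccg

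A member was called changed when its 2 scaled levels differed at least 1.5-fold, the counting interval lay wholly on 1 side of no change, and the tables held at least 20 reads for it. By this rule 34 members (79.1%) were called in at least 1 of the 6 measures (strength and distal pairs in 3 assays), against 77.6% of the 20172 genes tested, and 26 members (60.5%) in at least 2, against 54.8%. The share called differed between the measures. In Hi-C, the anchor strength of 4 of 43 members (9.3%) was higher in NCC and that of 3 (6.98%) was lower, against a background of 11.5% and 13.9% of all genes. Distal Hi-C pairs were higher for 6 and lower for 5 of 43 members, against 9.56% and 14.5%. The median log2 change of the members was 0.03 for Hi-C strength, against -0.04 over all genes and -0.06 over the 500 genes closest to each member in ESC Hi-C strength.

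FGFR1 HiChIP strength was higher for 7 and lower for 15 of 43 members (16.3% and 34.9%), against 18.9% and 28.9% of all genes, and FGFR1 distal pairs were higher for 5 and lower for 12, against 11.4% and 25.3%. The medians were -0.15 and -0.24, beside -0.16 and -0.22 over all genes and -0.27 and -0.33 over genes of like Hi-C strength. CTCF HiChIP strength was higher for 9 and lower for 10 of the 39 members tested (23.1% and 25.6%), against 18.8% and 22.4%, and CTCF distal pairs were higher for 6 and lower for 6 of 36 (16.7% each), against 11.8% and 11.9%. Their medians were -0.02 and 0.18, beside -0.05 and 0.00 over all genes and -0.09 and -0.03 over genes of like strength. Lower calls outnumbered higher ones in FGFR1 HiChIP both in the members and over all genes. The changes are therefore described gene by gene. Across the 43 members, Spearman rho between the strength changes in Hi-C and FGFR1 HiChIP was 0.214, against 0.063 over all genes. Over 39 members it was 0.221 for FGFR1 and CTCF HiChIP, against 0.0375 over all genes. For Hi-C and CTCF HiChIP it was 0.0567, against 0.0309. No interval was computed for these values. The points share the cell types, and members with overlapping windows share reads. For strength, 11 members were called in the same direction in at least 2 assays and 4 were called in opposite directions. Fzd4 and Tcf7l1 are in both counts. The same counts were not made over all genes, so they cannot be read as a trait of the members. Of all genes, 25.5% were called for strength in Hi-C, 47.8% in FGFR1 HiChIP and 41.2% in CTCF HiChIP.

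**Figure D1:**
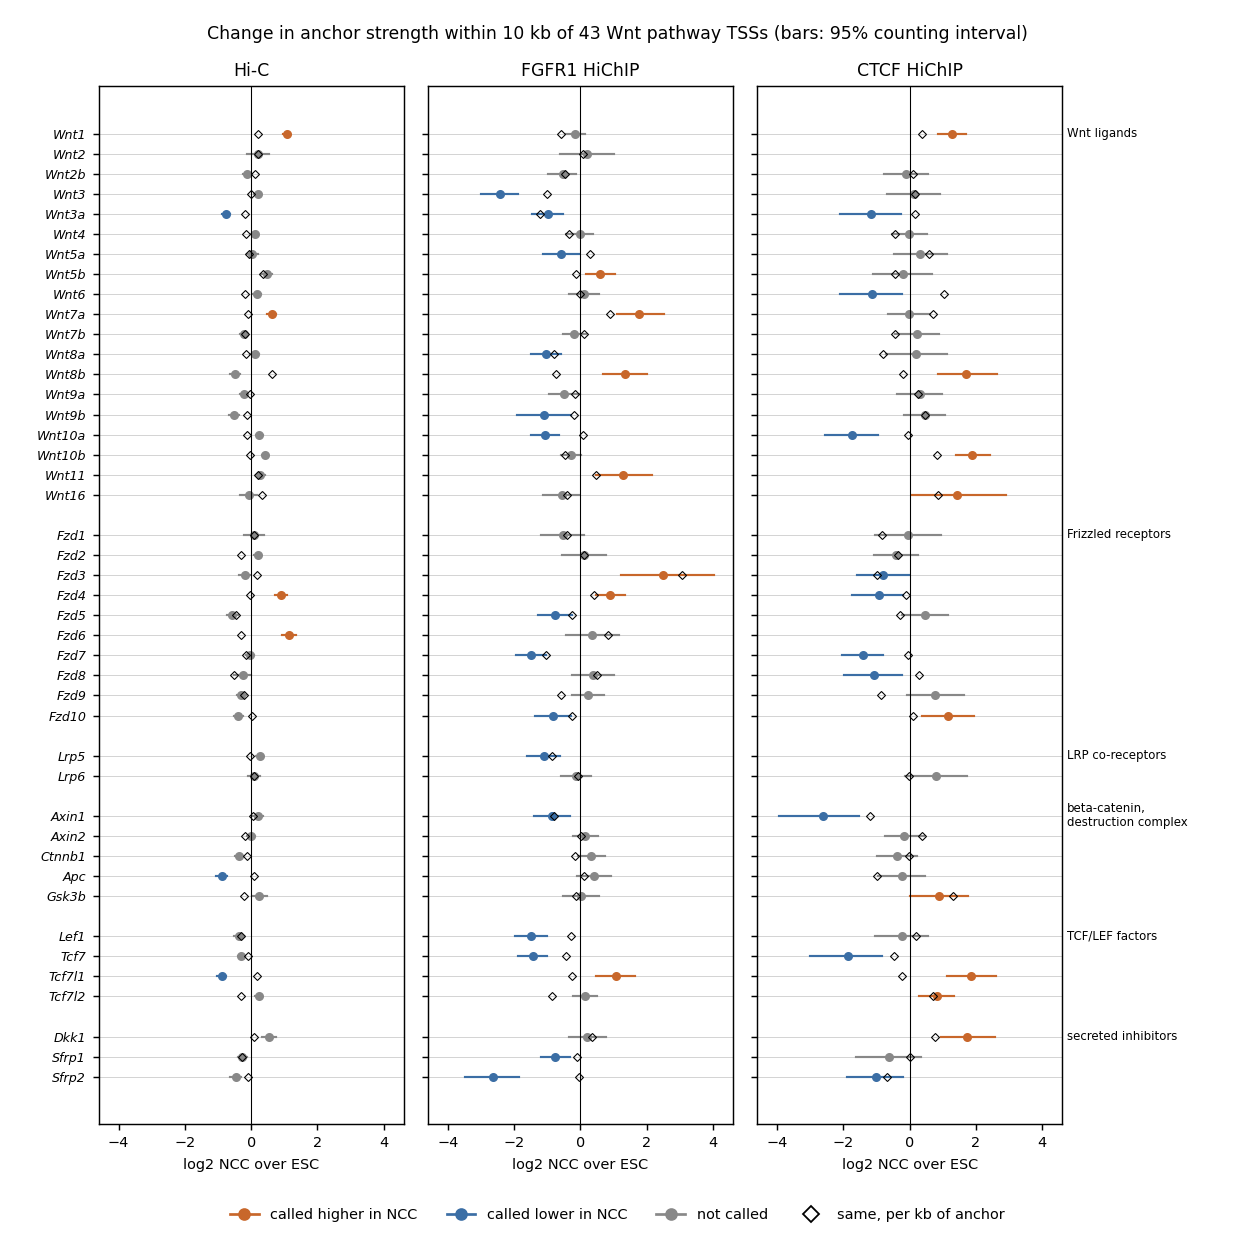
Log2 change of interaction anchor strength (NCC over ESC, horizontal axis) for each of the 43 members in Hi-C, FGFR1 HiChIP and CTCF HiChIP, with circles for the value, bars for the 95% counting interval and open diamonds for the same change per kb of anchor. Circles spread from -0.89 to 1.13 in Hi-C and from -2.63 to 2.50 in FGFR1 HiChIP, and many diamonds lie closer to 0 than their circles; members without an anchor in a CTCF table have no symbol there.

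Anchors had been called in each table separately, and the length of the anchors in a window moved with the strength. Over the members, the strength change and the change in total anchor length had a Spearman rho of 0.877 in Hi-C, 0.726 in FGFR1 HiChIP and 0.816 in CTCF HiChIP, much like the 0.888, 0.853 and 0.811 over all genes. Per kb of anchor, the called members dropped from 7 to 1 in Hi-C, from 22 to 12 in FGFR1 HiChIP and from 19 to 8 in CTCF HiChIP. The share of all genes called dropped as well, from 25.5% to 4.06%, from 47.8% to 22.9% and from 41.2% to 14.8%. Anchor lengths or changes per kb of anchor are therefore given with the called strengths below. Of the 81 calls of named members, 9 in 6 genes held under every alternative that gave a value, other than a stricter fold or a higher read minimum: FGFR1 contacts of Wnt3, Wnt8a, Tcf7, Lef1 and Fzd3, and CTCF contacts of Axin1. The Axin1 calls had values in 8 alternatives for strength and 4 for distal pairs, and the other 7 calls in 9 to 11. A setting that left under 20 reads gave no value, so the call was not counted as lost. The alternative TSS was the same site for Wnt3, Wnt8a, Lef1, Fzd3 and Axin1, so it could not change their calls. How many calls would hold over all genes was not counted. The 9 calls are described at the head of their groups.

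**Figure D2:**
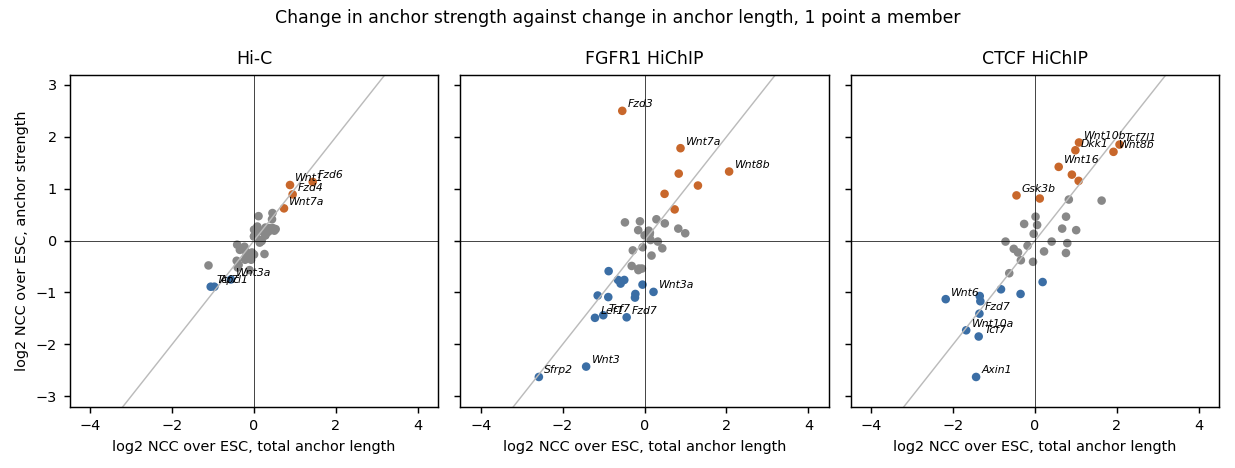
Log2 change (NCC over ESC) of anchor strength (vertical axis) against that of the total length of the anchors counted (horizontal axis), 1 point a member, orange where called higher, blue where called lower and grey where not called, with the diagonal in grey. Points follow the diagonal (rho 0.877 in Hi-C), and Fzd3 in FGFR1 HiChIP stands farthest above it, with a strength change of 2.50 on shorter anchors.

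Among the ligands, the FGFR1 contacts of Wnt3, which acts in gastrulation and neural patterning, were fewer in NCC. In its window, chr11:103764150-103784150, 201 FGFR1 ends were counted in ESC and 45 in NCC, or 37.5 and 6.96 per 1000000 ends of their tables (written as rpm below), a log2 change of -2.43 (95% interval -3.01 to -1.88), and 1.6% of genes of like Hi-C strength changed to a lower value. Distal FGFR1 pairs numbered 72 in ESC and 17 in NCC (-2.35, -3.21 to -1.58). The NCC table was thus the lower one in both FGFR1 measures. Hi-C ends at Wnt3 numbered 1836 and 2151 (0.19, 0.09 to 0.30) and CTCF ends 40 and 38 (0.13, -0.67 to 0.92), neither called. The FGFR1 anchors covered 9.84 kb in ESC and 3.66 kb in NCC and held 20.4 and 12.3 ends per kb, so that the change per kb was -1.0. The 4 ESC anchors held 23, 104, 45 and 29 ends and flanked the TSS on both sides, while the single NCC anchor, with 45 ends, lay upstream between 2 of them and shared no bases with any.

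Wnt8a, a ligand of the early embryonic axis, had 132 FGFR1 ends in ESC (24.6 rpm) and 78 in NCC (12.1 rpm), a log2 change of -1.03 (-1.48 to -0.58). Its anchor length differed little, 9.21 kb against 7.88 kb, and the change per kb was -0.80. Distal FGFR1 pairs were 52 and 29 (-1.11, -1.82 to -0.43). The ESC anchor across the TSS held 50 FGFR1 ends, and no NCC FGFR1 anchor crossed the TSS. Hi-C ends at Wnt8a were 965 and 1055 (0.10, -0.05 to 0.24) and CTCF ends 25 in both tables (0.20, -0.72 to 1.14), without a call.

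**Figure D3:**
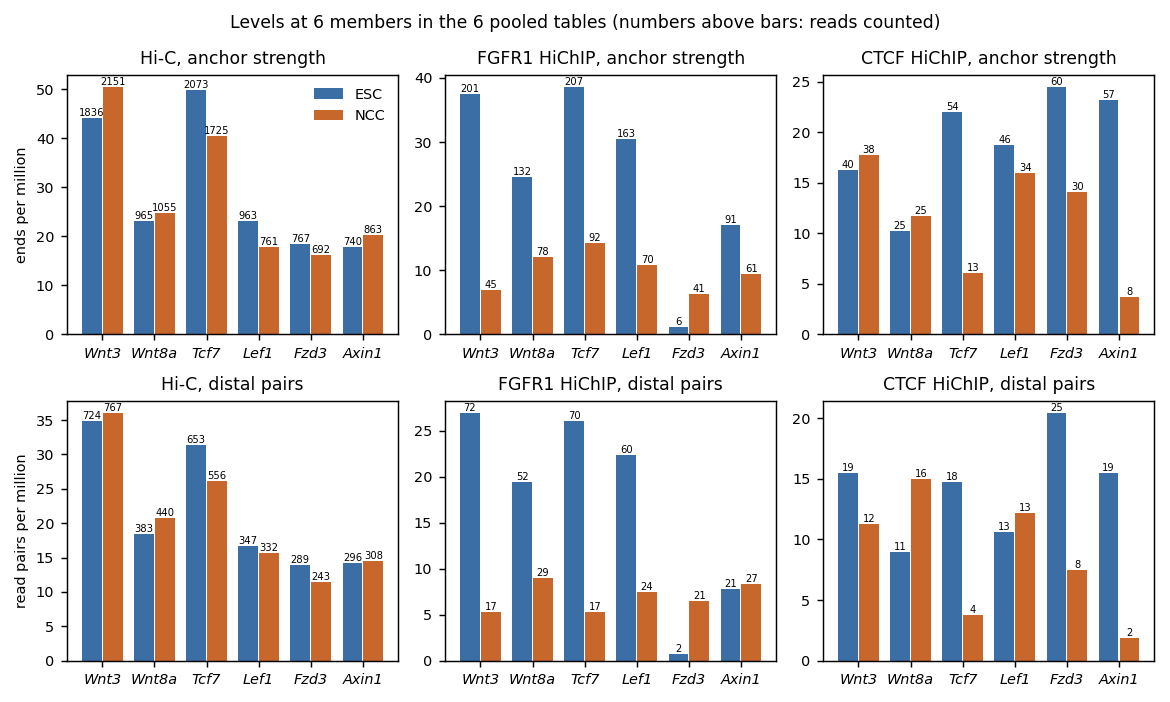
Scaled levels of the 6 members with steady calls in ESC (blue) and NCC (orange): ends per 1000000 for anchor strength in the upper row and read pairs per 1000000 for distal pairs in the lower row, with 1 bar a pooled table, no error bars since replicates were merged, and the reads counted above each bar. FGFR1 levels of Wnt3 were 37.5 and 6.96 ends per 1000000, whereas its Hi-C levels were 44.2 and 50.5.

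Wnt1 and Wnt10b, a neural and an adipose and bone ligand, have start sites 11.7 kb apart on chromosome 15, and their windows overlap, so they share anchors. Wnt1 had 1331 Hi-C ends in ESC and 2863 in NCC (1.07, 0.96 to 1.18), on anchors of 12.3 kb and 22.6 kb, which left a change per kb of 0.20. Its distal Hi-C pairs were 524 and 1062 (0.99, 0.83 to 1.14), the highest value among 500 genes of like Hi-C strength. Under 10 other settings this distal change ranged from 0.05 to 1.16, and the call held in 6. In NCC, 1274 of the 2863 Hi-C ends lay in an anchor across the window's edge, which holds the Wnt10b TSS. No ESC Hi-C anchor of the Wnt1 window held that TSS. CTCF ends at Wnt1 were 98 and 205 (1.27, 0.85 to 1.69; 0.37 per kb), and CTCF distal pairs 39 and 56 (0.72, 0.11 to 1.35). Both assays were higher in NCC at Wnt1, whereas its 260 and 283 FGFR1 ends (-0.15, -0.44 to 0.14) were not called. At Wnt10b, CTCF ends were 56 and 180 (1.89, 1.39 to 2.41; 0.82 per kb) and CTCF distal pairs 24 and 61 (1.55, 0.85 to 2.29). Its FGFR1 distal pairs went the other way, from 108 to 78 (-0.74, -1.18 to -0.31), and its Hi-C ends, 2314 and 3152 (0.41, 0.32 to 0.50), stayed under 1.5-fold. In ESC Hi-C, anchors shared by both windows held 74.6% of the Wnt1 ends and 42.9% of the Wnt10b ends, and in NCC 100.0% and 90.8%, so the 2 genes are not separate observations there.

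The distal partners of Wnt1 and Wnt10b were compared in 10 kb bins. The Wnt1 bin with the largest Hi-C change, 20 to 30 kb upstream, holds the TSS of Arf3 and had 20 pairs in ESC and 129 in NCC (2.66, 1.97 to 3.41). The NCC pairs can include those of the edge anchor that holds the Wnt10b TSS, and their number was not counted. For Wnt10b, the bin 20 to 30 kb upstream had 6 and 19 CTCF pairs (1.87, 0.48 to 3.48) but 18 and 6 FGFR1 pairs (-1.86, -3.48 to -0.46). At the same distance the 2 HiChIP assays thus moved in opposite directions. A partner was placed by the centre of its anchor, and since anchor borders differ between tables, neighbouring bins can trade reads.

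Wnt3a and Wnt9a start 16.2 kb apart on chromosome 11 and share windows. Wnt3a, a ligand of the canonical pathway that is used to keep ESC in culture, was lower in all 3 assays in NCC. Its Hi-C ends were 1899 and 1157 (-0.75, -0.87 to -0.63; -0.18 per kb), its FGFR1 ends 132 and 80 (-0.99, -1.46 to -0.53; -1.21 per kb) and its CTCF ends 44 and 17 (-1.17, -2.11 to -0.27; 0.17 per kb). Distal pairs numbered 1066 and 600 in Hi-C (-0.86, -1.01 to -0.72), and 51 and 38 in FGFR1 HiChIP (-0.70, -1.34 to -0.06). The Hi-C bin 20 to 30 kb upstream had 71 pairs in ESC and 10 in NCC (-2.86, -3.98 to -1.90). When anchors were counted by their midpoint, the Wnt3a Hi-C strength change was 0.07, so an anchor at the window's edge carried the call. Wnt9a, its neighbour, was called in no measure.

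Wnt6 and Wnt10a, 19.6 kb apart on chromosome 1, also share anchors. Wnt10a, a ligand known from tooth and hair development, had 166 FGFR1 ends in ESC and 96 in NCC (-1.06, -1.49 to -0.64) and 84 and 22 CTCF ends (-1.73, -2.57 to -0.96). Its distal pairs were 61 and 30 in FGFR1 HiChIP (-1.29, -1.98 to -0.64) and 27 and 6 in CTCF HiChIP (-1.97, -3.53 to -0.66). All 4 HiChIP measures were lower in NCC, but the anchors had shortened from 7.65 to 3.46 kb and from 5.81 to 1.81 kb, and the changes per kb were 0.08 and -0.05. Of the CTCF matches printed above, the near upstream one lay in a CTCF anchor of both cell types with 46 ends in ESC and 22 in NCC (18.8 and 10.3 rpm) and in an FGFR1 anchor with 54 ends in each. The downstream match lay in an FGFR1 anchor with 64 ends in ESC and in none in NCC, and the far upstream match in no HiChIP anchor. At Wnt6, which takes part in epithelial and kidney development, CTCF ends were 48 and 19 (-1.13, -2.11 to -0.23), on 7.08 and 1.56 kb of anchor, and per kb the change was 1.04. Its CTCF distal pairs were 24 and 9 (-1.21, -2.50 to -0.06).

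Wnt7a, a ligand of the developing limb and brain, had 28 FGFR1 ends in ESC and 116 in NCC (1.78, 1.10 to 2.51; 0.90 per kb) and 12 and 57 distal FGFR1 pairs (1.98, 1.06 to 3.01). Hi-C ends there were 1050 and 1654 (0.62, 0.49 to 0.75; -0.11 per kb) and distal Hi-C pairs 505 and 796 (0.62, 0.46 to 0.79). Both assays were higher in NCC, but in FGFR1 anchors found in both cell types the strength change was -0.01. CTCF ends at Wnt7a, 56 and 48, were not called. Wnt8b, expressed in the forebrain, had 28 and 85 FGFR1 ends (1.33, 0.68 to 2.02) and 19 and 54 CTCF ends (1.71, 0.85 to 2.64), with 11 and 36 FGFR1 distal pairs (1.44, 0.43 to 2.56) and 7 and 22 CTCF distal pairs (1.85, 0.58 to 3.32). Its Hi-C distal pairs were lower in NCC, 543 and 349 (-0.67, -0.87 to -0.47). HiChIP anchors at Wnt8b lengthened from 2.25 kb in ESC to 9.41 kb for FGFR1 and 8.48 kb for CTCF, and per kb the strength changes were -0.73 and -0.20.

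Wnt9b, a ligand of kidney tubule formation that neighbours Wnt3, had 51 and 29 FGFR1 ends (-1.09, -1.90 to -0.30; -0.20 per kb) and 572 and 347 distal Hi-C pairs (-0.75, -0.95 to -0.56). Its printed CTCF match lay in ESC anchors with 12 CTCF ends and 21 FGFR1 ends and in no HiChIP anchor in NCC. Wnt16 had 9 and 21 CTCF ends (1.42, 0.07 to 2.92; 0.85 per kb) and 40 and 29 distal FGFR1 pairs (-0.73, -1.48 to -0.01), and Wnt2 had 14 and 36 distal Hi-C pairs (1.33, 0.40 to 2.33). These 3 values rest on few reads. Wnt2 had 21 CTCF ends in ESC and no CTCF anchor in NCC, and Wnt11 had none in either table; the tables list reads in called anchors only, so neither was compared. Wnt11, whose promoter holds the TCF/LEF core printed above, was called higher in FGFR1 strength, at 19 and 56 ends (1.29, 0.47 to 2.17; 0.46 per kb). Wnt5b was also called higher, at 87 and 159 ends (0.60, 0.16 to 1.05; -0.13 per kb), and Wnt5a lower, at 70 and 56 (-0.59, -1.14 to -0.05; 0.28 per kb). Wnt2b, Wnt4, Wnt7b and Wnt9a were called in no measure. Over the 19 ligands, FGFR1 strength was called higher for 4 and lower for 6 (21.1% and 31.6%, against 18.9% and 28.9% of all genes), with a median of -0.29. CTCF strength was called higher for 4 and lower for 3 of 17 (23.5% and 17.6%, against 18.8% and 22.4%), with a median of 0.20.

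Of the Frizzled receptors, the membrane proteins that bind Wnts, Fzd3, which guides axons in the nervous system, had the largest FGFR1 gain. In its window, chr14:65252463-65272463, FGFR1 ends numbered 6 in ESC (1.12 rpm) and 41 in NCC (6.34 rpm), a log2 change of 2.50 (1.23 to 4.04). Distal FGFR1 pairs were 2 and 21 (3.12, 1.09 to 6.26). The ESC anchor lay across the TSS and held 1.55 ends per kb, while the NCC anchor lay from 4.24 to 6.90 kb downstream and held 15.4 ends per kb, with no bases in common. CTCF contacts of Fzd3 went the other way, with 60 and 30 ends (-0.80, -1.60 to -0.03; -0.98 per kb) and 25 and 8 distal pairs (-1.44, -2.80 to -0.25), and its Hi-C ends were 767 and 692 (-0.18, -0.36 to -0.01). With windows of 5 kb or 25 kb the CTCF strength change of Fzd3 was 0.15 or 0.17. Its printed CTCF match lay in an ESC Hi-C anchor and in no HiChIP anchor.

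Fzd4, the receptor for the retinal signal norrin, had more Hi-C and FGFR1 contacts in NCC and fewer CTCF contacts. Its Hi-C ends were 491 and 934 (0.89, 0.71 to 1.08) and its FGFR1 ends 86 and 194 (0.90, 0.48 to 1.34), with 171 and 343 (0.97, 0.70 to 1.24) and 31 and 70 distal pairs (0.90, 0.27 to 1.56). CTCF ends at Fzd4 were 64 and 29 (-0.94, -1.73 to -0.19). Per kb of anchor the strength changes were -0.05, 0.41 and -0.11 in the same order of assays. Fzd6, a receptor of hair and planar polarity, had 378 and 849 Hi-C ends (1.13, 0.93 to 1.34) and 133 and 308 distal pairs (1.18, 0.88 to 1.48), but its Hi-C anchors lengthened from 9.67 to 26.1 kb and the change per kb was -0.30. Its CTCF ends, 9 and 2, were too few to compare.

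Fzd7, a main Wnt receptor of ESC, was lower in both HiChIP assays, with 176 and 76 FGFR1 ends (-1.48, -1.94 to -1.04) and 122 and 40 CTCF ends (-1.41, -2.04 to -0.80). Distal pairs were 70 and 35 (-1.27, -1.90 to -0.67) and 47 and 15 (-1.45, -2.39 to -0.58). Its Hi-C ends were 1293 and 1289 (-0.04, -0.17 to 0.09). The FGFR1 change was -1.04 per kb of anchor, whereas the CTCF change was -0.05 per kb, on anchors of 15.6 and 6.08 kb. The distal FGFR1 bin 20 to 30 kb downstream of Fzd7 had 10 pairs in ESC and 1 in NCC (-3.59, -9.03 to -0.78). Fzd10 had 100 and 68 FGFR1 ends (-0.83, -1.36 to -0.30) but 29 and 56 CTCF ends (1.15, 0.38 to 1.95), and per kb the changes were -0.24 and 0.09. Among the remaining receptors, Fzd1 was called once (Hi-C distal pairs 66 and 116; 0.78, 0.33 to 1.24), Fzd5 once (FGFR1 ends 97 and 69; -0.76, -1.29 to -0.24; -0.27 per kb), Fzd8 once (CTCF ends 58 and 24; -1.07, -1.98 to -0.23; 0.29 per kb), and Fzd2 and Fzd9 in no measure.

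The LRP co-receptors form the other arm of the receptor. At Lrp5, whose loss alters bone mass and eye vessels, FGFR1 ends were 130 in ESC and 73 in NCC (-1.10, -1.60 to -0.62; -0.87 per kb), and distal FGFR1 pairs 49 and 23 (-1.36, -2.14 to -0.62). Its Hi-C ends were 1383 and 1682 (0.25, 0.13 to 0.37), and no CTCF anchor lay in its window in either cell type. With windows of 25 kb the FGFR1 strength change was 0.03. Lrp6, the co-receptor that Wnts need most widely in the embryo, was called in no measure, with 101 and 111 FGFR1 ends (-0.13, -0.60 to 0.33) and 26 and 39 CTCF ends (0.79, -0.14 to 1.74).

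In the destruction complex, Axin1, the scaffold that brings beta-catenin to its kinases, had the largest CTCF drop of the members. In its window, chr17:26128688-26148688, CTCF ends numbered 57 in ESC (23.2 rpm) and 8 in NCC (3.75 rpm), a log2 change of -2.63 (-3.93 to -1.52), with 2.0% of genes of like strength lower. CTCF distal pairs were 19 and 2 (-3.05, -6.19 to -0.99). The 3 ESC anchors held 16, 18 and 23 ends, and the middle one was the only CTCF anchor in NCC, with 8 ends. Its anchor length was 6.95 kb and 2.56 kb, and the change per kb was -1.19. FGFR1 ends at Axin1 were 91 and 61 (-0.85, -1.39 to -0.32; -0.80 per kb), whereas its Hi-C ends, 740 and 863 (0.19, 0.03 to 0.35), and its FGFR1 distal pairs, 21 and 27 (0.09, -0.78 to 0.99), were not called.

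Apc, the tumour suppressor that holds the complex together, had 1234 Hi-C ends in ESC and 680 in NCC (-0.89, -1.05 to -0.74) and 431 and 219 distal pairs (-1.01, -1.25 to -0.77). Its Hi-C anchors shortened from 19.4 to 9.91 kb, and the density was 63.6 and 68.6 ends per kb, a change of 0.08. FGFR1 ends at Apc were 61 and 98 (0.41, -0.09 to 0.93), without a call. Gsk3b, a kinase that phosphorylates beta-catenin, was called once, with 24 and 38 CTCF ends (0.87, 0.01 to 1.76; 1.32 per kb). Axin2, a feedback target of the pathway, and Ctnnb1, the beta-catenin gene itself, were called in no measure. Ctnnb1 had 1386 and 1101 Hi-C ends (-0.37, -0.49 to -0.24), 111 and 168 FGFR1 ends (0.33, -0.07 to 0.73) and 75 and 50 CTCF ends (-0.38, -1.0 to 0.22).

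The TCF/LEF factors, which take beta-catenin to its target genes, had opposite HiChIP changes among themselves. At Tcf7, in the window chr11:52273014-52293014, distal FGFR1 pairs numbered 70 in ESC (26.1 rpm) and 17 in NCC (5.26 rpm), a log2 change of -2.31 (-3.17 to -1.53). FGFR1 ends were 207 and 92 (-1.44, -1.88 to -1.02; -0.44 per kb) and CTCF ends 54 and 13 (-1.85, -3.02 to -0.83; -0.48 per kb). CTCF distal pairs were 18 and 4 (-1.97, -3.99 to -0.37). The HiChIP measures of Tcf7 were all lower in NCC, while its Hi-C ends were 2073 and 1725 (-0.30, -0.41 to -0.19). In the bin 20 to 30 kb downstream, 10 FGFR1 pairs in ESC stood against 1 in NCC (-3.59, -9.03 to -0.78).

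Lef1, a factor of this family with roles in neural crest, hair and lymphocytes, had 60 distal FGFR1 pairs in ESC (22.4 rpm) and 24 in NCC (7.43 rpm), a log2 change of -1.59 (-2.34 to -0.89). In its window, chr3:131100471-131120471, FGFR1 ends were 163 and 70 (-1.49, -1.98 to -1.02). In ESC there were 3 anchors, with 39, 92 and 32 ends, and in NCC a single one, with 70 ends, inside the middle one. The density was nearly the same, 14.5 and 14.3 ends per kb, so in strength per kb the change was -0.29. Hi-C ends at Lef1 were 963 and 761 (-0.37, -0.53 to -0.22) and CTCF ends 46 and 34 (-0.23, -1.04 to 0.56), without a call. The promoter stretch printed above had 876 ends in its ESC Hi-C anchor of 10.6 kb and 320 in its NCC anchor of 3.93 kb.

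Tcf7l1, the repressor of this family that is abundant in ESC, was the only member called in all 6 measures. How many of all genes were called in all 6 was not counted, and strength and distal pairs of 1 assay share reads. At Tcf7l1, Hi-C ends were 1606 in ESC and 886 in NCC (-0.89, -1.03 to -0.76) and distal Hi-C pairs 681 and 429 (-0.70, -0.88 to -0.52). Its FGFR1 ends were 49 and 123 (1.06, 0.48 to 1.66) and its CTCF ends 30 and 94 (1.85, 1.13 to 2.62). Hi-C was thus lower in NCC while both HiChIP assays were higher. The distal pairs, 17 and 45 in FGFR1 HiChIP (1.13, 0.30 to 2.03) and 14 and 32 in CTCF HiChIP (1.39, 0.45 to 2.42), went with the strengths. Anchor lengths moved the same way in each assay, from 13.1 to 6.29 kb in Hi-C, from 1.67 to 4.12 kb in FGFR1 HiChIP and from 1.67 to 6.97 kb in CTCF HiChIP, and per kb the strength changes turned to 0.16, -0.25 and -0.22. Tcf7l2, a factor of gut and brain, had 65 and 99 CTCF ends (0.81, 0.28 to 1.35), with 0.70 per kb on anchors of 9.0 and 9.74 kb, and 28 and 42 CTCF distal pairs (0.79, 0.06 to 1.53). Its Hi-C bin 20 to 30 kb downstream had 17 and 85 pairs (2.29, 1.53 to 3.13).

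**Figure D4:**
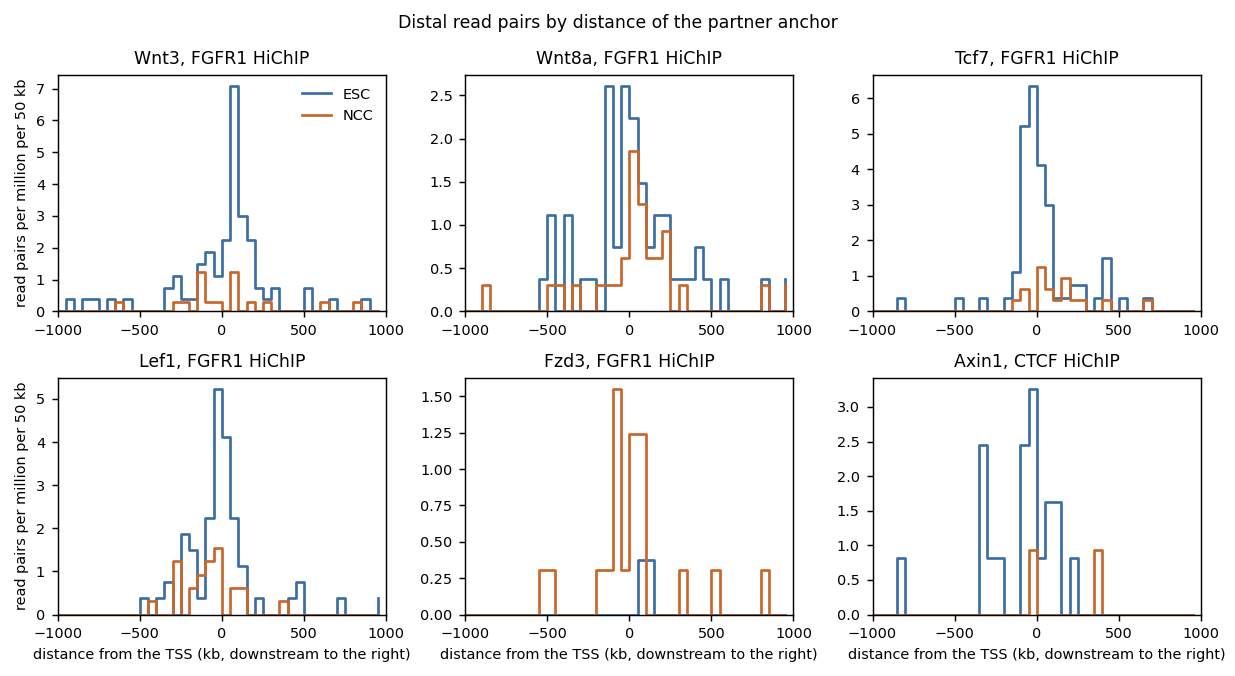
Distal read pairs per 1000000 (vertical axis) in 50 kb bins of the partner's distance from the TSS (horizontal axis, downstream to the right) in ESC (blue) and NCC (orange), for FGFR1 HiChIP at 5 members and CTCF HiChIP at Axin1. The ESC line is above the NCC line near the TSS of Wnt3, Tcf7 and Lef1, and at Fzd3 the NCC line holds 21 pairs against 2 in ESC.

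The secreted inhibitors differed from each other. Dkk1, which blocks LRP co-receptors, had 20 CTCF ends in ESC and 58 in NCC (1.74, 0.95 to 2.57; 0.75 per kb) and 15 and 28 CTCF distal pairs (1.10, 0.15 to 2.11), with Hi-C ends of 404 and 599 (0.53, 0.33 to 0.74) that were not called. Sfrp2, a decoy that binds Wnts, had 87 and 17 FGFR1 ends (-2.63, -3.49 to -1.84), the lowest FGFR1 strength change of the members. Its distal FGFR1 pairs were 27 and 8 (-2.03, -3.37 to -0.85) and its CTCF ends 54 and 23 (-1.03, -1.89 to -0.21; -0.67 per kb). The FGFR1 anchors of Sfrp2 covered 7.30 kb in ESC and 1.22 kb in NCC with 11.9 and 13.9 ends per kb, and per kb the change was -0.05. Sfrp1, a decoy of the same family, had 136 and 97 FGFR1 ends (-0.76, -1.20 to -0.32; -0.11 per kb) and 45 and 30 distal FGFR1 pairs (-0.86, -1.57 to -0.16). In FGFR1 anchors found in both cell types its strength change was 0.73. The 16 members given without full values had strength changes between -0.57 and 0.47 in Hi-C, -0.76 and 1.29 in FGFR1 HiChIP, and -1.07 and 0.87 in CTCF HiChIP.

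Contacts between members were counted where they lie on 1 chromosome. Wnt3 and Wnt9b, head to head 24.3 kb apart, were joined by 70 Hi-C read pairs in ESC and 30 in NCC (-1.26, -1.92 to -0.62). Wnt6 and Wnt10a were joined by 64 and 37 pairs (-0.82, -1.45 to -0.22), and Wnt3a and Wnt9a by 7 and 30 (2.07, 0.85 to 3.50), each outside the anchors that the windows share. Wnt1 and Wnt10b had 28 such pairs in ESC and 0 in NCC, where the shared anchors held 100.0% of the Wnt1 ends and left none to be counted, so no change was computed. The 3 neighbouring ligand pairs with a change did not all move in 1 direction, and for pairs with overlapping windows the shared anchors decide which reads remain to be counted. Wnt8a and Apc, 321 kb apart, were joined by 4 and 3 pairs. Between members on different chromosomes, each table held 0 to 2 read pairs, and 9.92% to 12.8% of the members' ends belonged to contacts between chromosomes.

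Summed over the 43 members, FGFR1 pairs to partners 20 to 50 kb away were 437 in ESC and 347 in NCC (-0.60, -0.81 to -0.40), against -0.23 over all genes, and CTCF pairs over that distance were 157 and 202 (0.57, 0.26 to 0.88), against 0.02. Wnt10b had the largest change in both sums, and without it the values were -0.53 (-0.75 to -0.32) and 0.43 (0.10 to 0.76). Its neighbour Wnt1 stayed in these sums. In NCC, anchors shared with Wnt1 held 51.2% of the FGFR1 ends and 89.4% of the CTCF ends of Wnt10b. Leaving out Wnt10b alone therefore cannot show the sums without this locus. From 50 kb to 1 Mb the member sums changed by -0.13 to -0.34 in FGFR1 HiChIP, and the Hi-C sums by 0.07 to -0.11 at any distance. The CTCF sums from 50 kb to 1 Mb changed by -0.19 to 0.11, with every interval across no change. These intervals were wide, such as -0.25 to 0.48 from 50 to 100 kb, and a difference between distances was not tested. Members with overlapping windows enter these sums with shared reads, and the intervals do not allow for that.

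HiChIP ends were also set against Hi-C ends of the same window and cell type, each as a share of its table, to show how far the antibody enriched a window. The members' median log2 ratio for FGFR1 was -0.41 in ESC and -0.83 in NCC, beside -0.30 and -0.43 over all genes and -0.57 and -0.78 over genes of like Hi-C strength, and for CTCF it was -0.42 and -0.29, beside -0.20 and -0.23 over all genes and -0.41 and -0.48 over genes of like strength. Per kb of anchor the same medians were 0.47, 0.22, 0.74 and 0.84, beside 0.64, 0.44, 1.03 and 1.07 over all genes, so the sign depended on the unit. Wnt3 went from -0.24 in ESC to -2.86 in NCC for FGFR1, and Fzd3 from -4.04 to -1.36. For CTCF, Axin1 went from 0.39 to -2.43, Tcf7 from -1.18 to -2.73, Tcf7l1 from -1.66 to 1.08 and Wnt10b from -1.28 to 0.19. Per kb of anchor, however, the strength change of Tcf7l1 was 0.16 in Hi-C and -0.22 in CTCF HiChIP. Some of these values rest on few HiChIP ends: the ESC value of Fzd3 on 6 FGFR1 ends, and the NCC values of Axin1 and Tcf7 on 8 and 13 CTCF ends. The value of -4.41 for Fzd6 in NCC rests on 2 CTCF ends.

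**Figure D5:**
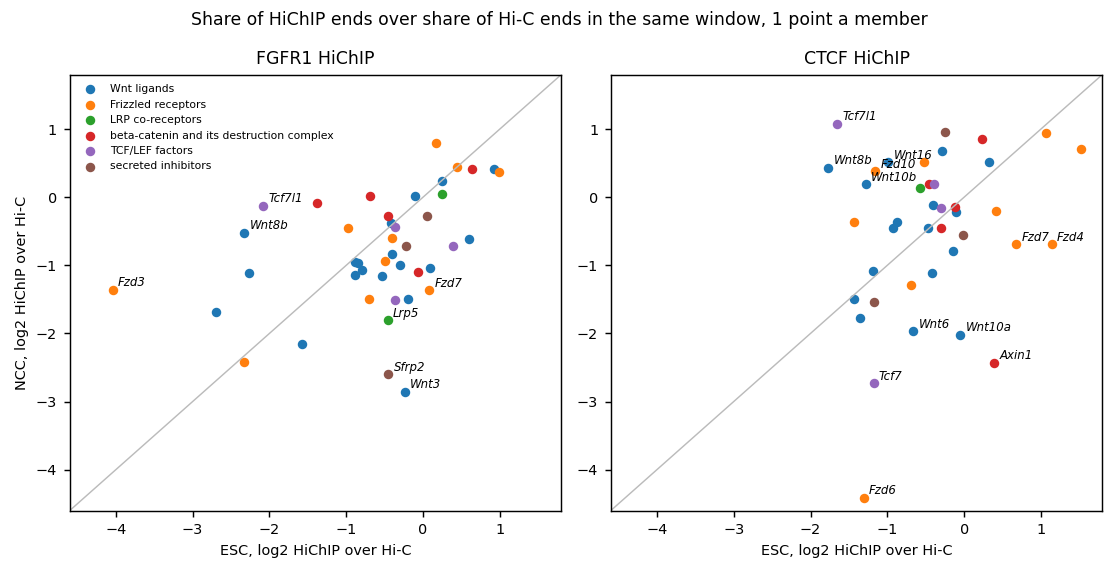
Log2 of the share of HiChIP ends over the share of Hi-C ends in the same window, in ESC (horizontal axis) and NCC (vertical axis), 1 point a member coloured by role, with the line of equal values in grey. Wnt3 lies far below the line for FGFR1 (-0.24 and -2.86) and Fzd3 far above it (-4.04 and -1.36), and Axin1 lies far below it for CTCF.

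The members' windows had features that the choice of genes did not use. Their median ESC Hi-C strength was 1185 ends, against 653.5 over all genes, although they held 45 GATC sites, at which every anchor starts and ends, against 49. Within 500 bp of the TSS the median GC content was 64.7%, against 54.8%, and 35 members (81.4%) had at least 50% GC with a CpG ratio of observed over expected above 0.6, against 44.7% of all genes. In the 250 bases before the RefSeq start, the members listed there had a median of 26.5 CpG, against 6 over all promoter windows. The Wnt3 and Lef1 stretches printed above, with 22 and 14, are below that median.

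The 63 other genes of the pathway, which release Wnts, amplify or inhibit the signal or answer it, were called in at least 2 measures for 37 genes (58.7%), against 54.8% of all genes. Their FGFR1 strength was higher for 10 and lower for 20 of 60 (16.7% and 33.3%, against 18.9% and 28.9% of all genes), and their CTCF strength higher for 14 and lower for 8 of 58 (24.1% and 13.8%, against 18.8% and 22.4%). In Hi-C, strength was higher for 5 and lower for 5 of 62 (8.06% each, against 11.5% and 13.9%). Distal pairs were higher for 5 and lower for 6 of 62 in Hi-C (8.06% and 9.68%, against 9.56% and 14.5%) and for 7 and 18 of 59 in FGFR1 HiChIP (11.9% and 30.5%, against 11.4% and 25.3%). In CTCF HiChIP they were higher for 7 and lower for 1 of 47 (14.9% and 2.13%, against 11.8% and 11.9%). The genes called in at least 2 measures fall into these roles. Of the R-spondin axis, which raises Frizzled levels, Rspo2, Rspo3, Rspo4 and the ubiquitin ligase gene Znrf3 were called higher only, Lgr4 and Rspo1 lower only, and Lgr6 and Rnf43 in both directions. Of the alternative receptors and planar polarity genes, Ror1, Ror2 and Daam1 were called higher only, Vangl2, Celsr1 and Celsr3 lower only, and Ryk and Prickle1 in both directions. Of the further inhibitors, Dkk2, Dkk4 and Nkd1 were called higher only, and Dkk3, Wif1, Sostdc1 and Sfrp4 lower only. Among nuclear partners Pygo2, Tle1 and Tle4 were called lower only and Bcl9l in both directions, and among target genes Sp5 was called higher only, T lower only and Myc in both directions. Wls, which escorts Wnts to the surface, and the kinase gene Csnk1d were called higher only, Apc2 and Csnk1e lower only, and Dvl1, Dvl3 and Csnk1a1 in both directions.

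The 5 of these genes called in at least 4 measures were Sfrp4, Sostdc1, Bcl9l, Znrf3 and Prickle1. How many of all genes were called in at least 4 measures was not counted. Sfrp4, a Wnt decoy, had 134 FGFR1 ends in ESC and 25 in NCC, a log2 change of -2.69, on 10.7 and 2.15 kb of anchor. Sostdc1, an inhibitor of Wnt and BMP signals, had 50 and 14 CTCF ends (-1.63) on 5.39 and 5.54 kb. Bcl9l, a beta-catenin co-activator, had 2961 and 1608 Hi-C ends (-0.91) on 23.7 and 14.2 kb but 35 and 127 CTCF ends (2.06) on 5.29 and 10.1 kb. Znrf3 had 35 and 87 CTCF ends (1.52) on 3.87 and 13.4 kb. Prickle1, a planar polarity gene, had 92 and 61 FGFR1 ends (-0.86) on 8.44 and 3.96 kb and 36 and 58 CTCF ends (0.89) on 3.72 and 9.02 kb. As in the members, 1 gene could thus move up in one assay and down in another. At Bcl9l and Prickle1, however, the anchor lengths moved in the same direction as the ends in each assay. Changes per kb of anchor are not given for these genes.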

How the data were processed

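Hi-C, FGFR1 HiChIP and CTCF HiChIP were measured in ESC and NCC, with 2 biological replicates per group. The authors mapped the reads and removed duplicates with HiC-Pro and called anchors with hichipper at default settings, with each sample handled on its own; each deposited table merges the replicates, and whether a q filter was applied to it is not stated. The submitters' processing notes name mm10, and the versions of HiC-Pro and hichipper are not given in the sources used here. The deposited score column holds counts of the read pairs found for each pair of anchors. The paper reports normalizing valid pairs between cell types, and whether this reached the deposited scores could not be checked here.

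Members and lists were chosen with earlier results of these data known. Ends and pairs were counted per gene (TSS from the GRCm38 gene annotation, 10 kb each side), a pair inside 1 anchor as 2 ends, and scaled to the table total. Intervals are 95% Clopper-Pearson, widened for such pairs. Since the replicates were merged, the intervals cover counting error only, and any PCR copies left after duplicate removal are not independent molecules. Genes with under 20 reads, or without an anchor in a table, were not compared: the tables list reads in called anchors only. Members called in at least 2 of 6 measures, or among the 3 largest changes of a measure, are named in full. Settings that keep part of the interactions were scaled to the total kept. Alternatives chosen after seeing the data were the strength per kb of whole anchors, those for HiChIP over Hi-C, and leaving out the member with the largest short-range change. The interval formula and the call rule were checked on simulated counts, which did not test how ends and pairs were counted in the windows. Python 3.11.15, numpy 2.4.6, pandas 2.3.3, scipy 1.17.1, numba 0.67.0 and matplotlib 3.10.9 were used.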

Additional observations from a re-analysis of the deposited data

How the results depend on the processing

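No paired analysis was possible because the tables merge the replicates and their columns carry no replicate number, and no replicate could be left out for the same reason. Of 103 medians over the list recomputed under an alternative, 5 moved: the CTCF distal median was 2.43 over 3 members with scores of at least 2, and the HiChIP over Hi-C medians per kb of whole anchors, an alternative chosen after seeing the data, were 0.47 for ESC FGFR1, 0.22 for NCC FGFR1, 0.74 for ESC CTCF and 0.84 for NCC CTCF. The counts of called members moved more often; the share of all genes called under the same alternative stands in parentheses. For Hi-C strength, 7 of 43 in the report (25.5%), the count was 11 with windows of 5 kb (32.3%), 3 with 25 kb (16.5%), 14 with scores of at least 2 (32.8%), 17 at the lower fold threshold (48.9%), 2 at 2-fold (10.2%), 4 per kb covered by anchors (13.0%) and 1 per kb of whole anchors (4.06%). Hi-C distal calls, 11 of 43 (24.1%), became 2 with windows of 25 kb (15.1%), 17 at the lower fold threshold (45.6%) and 3 at 2-fold (10.0%). FGFR1 strength calls, 22 of 43 (47.8%), became 10 of 38 in anchors found in both cell types (31.2%), 14 at 2-fold (28.0%), 14 per kb covered (28.9%) and 12 per kb of whole anchors (22.9%), and FGFR1 distal calls, 17 of 43 (36.7%), became 8 of 30 in shared anchors (19.8%) and 8 of 25 for partners from 200 kb to 1 Mb (20.8%). CTCF strength calls, 19 of 39 (41.2%), became 12 of 34 with windows of 5 kb (34.9%), 2 of 36 in shared anchors (23.3%), 8 of 39 per kb covered (20.2%) and 8 of 39 per kb of whole anchors (14.8%). CTCF distal calls, 12 of 36 (23.7%), became 3 of 26 with 5 kb (22.1%), 6 of 41 with 25 kb (25.4%), 0 of 12 in shared anchors (12.9%), 2 of 3 with scores of at least 2 (32.5%), 4 of 8 with at least 50 reads (25.8%), 7 of 19 for partners within 200 kb (20.6%) and 0 of 6 for those beyond (13.0%).

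Of the 81 called values of named members, 50 kept their direction in every alternative that gave a value and 51 of 997 recomputed values reversed. With windows of 5 kb, the log2 change was 0.38 for Wnt8b Hi-C distal pairs, 0.00 for Wnt3a and 0.09 for Wnt10a FGFR1 strength, 0.15 for Fzd3 CTCF strength and -0.18 for Wnt1 CTCF distal pairs. With 25 kb it was 0.05 for Apc Hi-C strength, 0.06 for Wnt8b Hi-C distal pairs, 0.04, 0.03 and -0.16 for the FGFR1 strength of Wnt10a, Lrp5 and Tcf7l1, 0.17 and 0.29 for the CTCF strength of Fzd3 and Fzd4, and 0.10 for Tcf7 CTCF distal pairs. With anchors placed by midpoint, it was 0.07 and 0.13 for Wnt3a Hi-C strength and distal pairs and 0.06 for Wnt8b Hi-C distal pairs. In anchors found in both cell types, FGFR1 strength was -0.01 for Wnt7a, -0.52 for Wnt8b, 0.11 for Wnt9b, 0.75 for Wnt10a, -0.17 for Fzd4 and 0.73 for Sfrp1, FGFR1 distal pairs were -0.06 for Wnt7a, 0.05 for Wnt10a, 0.48 for Wnt16, -0.12 for Fzd4 and 0.69 for Sfrp1, and CTCF strength was 0.30 for Wnt6, -0.43 for Wnt8b and 0.36 for Fzd3. Per kb covered by anchors inside the window, the change was -0.09 for Wnt7a in Hi-C, -0.73, 3.75, -0.25 and 3.91 for Wnt8b, Wnt9b, Tcf7l1 and Sfrp2 in FGFR1 HiChIP, and 0.17, 0.57, -0.20 and -0.20 for Wnt3a, Wnt6, Wnt8b and Tcf7l1 in CTCF HiChIP. Per kb of whole anchors it was -0.11, -0.05, -0.30, 0.08 and 0.16 for Wnt7a, Fzd4, Fzd6, Apc and Tcf7l1 in Hi-C, -0.73, 0.08 and -0.25 for Wnt8b, Wnt10a and Tcf7l1 in FGFR1 HiChIP, and 0.17, 1.04, -0.20 and -0.22 for Wnt3a, Wnt6, Wnt8b and Tcf7l1 in CTCF HiChIP. The large values of Wnt9b and Sfrp2 arise because only a short end of an anchor lay inside the window. Another TSS choice kept 79 of 81 calls. It moved the TSS of a named member by at most 443 bases, at Tcf7, and left most of them in place. The windows thus hardly changed, and this setting tested little. The cause of the other changes was not tested.

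Of the 9 steady calls, those of strength ranged from -2.90 to -1.0 for Wnt3 FGFR1, -1.91 to -0.70 for Wnt8a FGFR1, 1.15 to 3.05 for Fzd3 FGFR1, and -2.63 to -1.19 for Axin1 CTCF, but shared anchors gave no value for Wnt3 and Fzd3 strength. HiChIP strengths of the members rested on at most 283 ends, so their intervals are wide and small changes could not be resolved.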
